A study of Homo sapiens with 12 samples.

Results

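Stable overexpression of TIF1γ was compared with its empty-vector control in A549 cells, a human lung adenocarcinoma line, by RNA sequencing. TIF1γ is the protein of the TRIM33 gene. Cells had received a lentivirus carrying the TIF1γ expression construct or a lentivirus with the empty vector, and both groups therefore share lentiviral infection and the A549 background. The labels list 3 biological replicates in each group, 6 libraries in all. Values were at hand for 5 of them: vector replicates 1, 2 and 3 and TIF1γ replicates 2 and 3. TIF1γ replicate 1 is not analysed here. These 5 libraries are part of 8 with values in the series, and the libraries with short hairpin constructs were not used. The promoter of the construct, and whether the stable cells were a pool or 1 clone, are not given in the sources used here.

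The genes reported are protein-coding genes in which both TIF1γ libraries lay beyond all 3 vector libraries. The genes were compared within bins of transcript GC percent, the share of guanine and cytosine in the gene's longest transcript, because the difference between the groups followed it. Of 57879 gene identifiers, 12708 were compared, and 11211 of these were protein-coding. The genes compared had 1 FPKM or more in no fewer than 2 of the 5 libraries and a known transcript GC. Genes set aside as described below are not among them. FPKM counts fragments relative to the length of the gene's transcript and to the size of the library. Values of a gene are given in the order vector replicates 1, 2 and 3, then TIF1γ replicates 2 and 3. Group differences are differences of mean log2(FPKM + 1) after library scaling, TIF1γ minus vector, and they understate the change of genes with low values. A "scaled" difference is taken from those values alone. A "GC-bin-centred" difference is taken after the median deviation of the gene's GC bin was subtracted in each library.

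TIF1γ belongs to the tripartite motif family, whose members carry a RING domain that can act as a ubiquitin ligase, and it reads histone marks through a PHD finger and a bromodomain. It is known as a brake on TGF-beta signalling: it can ubiquitinate SMAD4, the mediator shared by TGF-beta and BMP signals, and it can bind receptor-activated SMAD2 and SMAD3 in its place. In epithelial cells TGF-beta drives epithelial-mesenchymal transition, in which E-cadherin (CDH1) is lost and N-cadherin (CDH2), vimentin (VIM) and fibronectin (FN1) are gained.

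TRIM33 itself marked the groups. It was listed at 2.23, 2.10 and 1.27 FPKM in vector replicates 1, 2 and 3 and at 8.03 and 6.14 FPKM in TIF1γ replicates 2 and 3. All vector libraries were low and both TIF1γ libraries high, with no overlap. The means were 1.86 ± 0.522 FPKM (SD, n = 3) and 7.08 ± 1.34 FPKM (SD, n = 2). The GC-bin-centred log2 difference was 2.01 (SE 0.257), or 4.02-fold on that scale, and the scaled one was 1.41. TRIM33 had the lowest limma p of all 11211 protein-coding genes on GC-bin-centred values, yet its Benjamini-Hochberg adjusted p was 0.453. On scaled values its limma p ranked 5 among them, with an adjusted p of 0.099. The GC bin of TRIM33 is that of its annotated transcript, which the construct's RNA need not match. Gene-level FPKM does not separate the construct's RNA from the cell's own TRIM33 RNA.

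Read totals do not come with the values, so the depth of each library is unknown and no counting interval is given. Below 0.05 FPKM the ratio of a gene's values between libraries repeated, with 33.5% to 39.5% of 233 to 346 such genes at the most frequent ratio. That ratio put the relative depth at 0.986 for vector replicate 2, 1.04 for vector replicate 3, 0.822 for TIF1γ replicate 2 and 0.915 for TIF1γ replicate 3, against vector replicate 1. Between 12132 and 12622 genes reached 1 FPKM in a library, with TIF1γ replicate 2 the lowest. Of 14 A549 markers, 12 were detected above the filter, and the other 2, KRT8 and KRT18, are described below. Of the markers of other cell types, 2 of 15 for leukocytes, 1 of 10 for fibroblasts, 0 of 7 with an identifier for endothelial cells and 3 of 9 for neuroendocrine cells passed the filter. The leukocyte markers summed to 38.0, 40.8 and 59.4 FPKM in vector replicates 1, 2 and 3 and to 89.1 and 62.9 FPKM in TIF1γ replicates 2 and 3, with 6 of the 15 listed at 0 in all 5 libraries. CD14, a receptor for bacterial lipopolysaccharide, made up part of that sum with 12.5, 11.7 and 23.6 FPKM in vector replicates 1, 2 and 3 and 34.96 and 29.05 FPKM in TIF1γ replicates 2 and 3. Their part in the results below was not tested. In bulk RNA, fewer cells of a kind and less RNA per cell cannot be told apart.

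Base composition is shown for 3 genes. STARD4 had the lowest transcript GC percent of the named protein-coding genes that were lower without overlap. LTBP3 had the highest of those that were higher, and TRIM33 is the expressed transgene. The directions of STARD4 and LTBP3 were thus set by the choice and are no evidence for the trend. The middle 120 coding bases of each are printed 5′ to 3′, with G and C in capitals, from the longest coding transcript of GENCODE 29 (GRCh38).
STARD4: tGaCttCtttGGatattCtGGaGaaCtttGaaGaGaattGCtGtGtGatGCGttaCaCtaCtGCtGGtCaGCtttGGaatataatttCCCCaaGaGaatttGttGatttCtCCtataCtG
TRIM33: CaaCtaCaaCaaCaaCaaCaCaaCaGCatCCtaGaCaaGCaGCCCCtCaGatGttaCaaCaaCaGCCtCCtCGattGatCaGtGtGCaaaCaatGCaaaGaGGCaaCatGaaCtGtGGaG
LTBP3: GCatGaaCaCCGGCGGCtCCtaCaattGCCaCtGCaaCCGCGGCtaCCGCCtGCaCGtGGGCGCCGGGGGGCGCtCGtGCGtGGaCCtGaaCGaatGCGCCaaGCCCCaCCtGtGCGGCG
The STARD4 stretch (chromosome 5, coding bases 248 to 367) holds 46 G or C in 120, the TRIM33 stretch (chromosome 1, coding bases 1631 to 1750) holds 55, and the LTBP3 stretch (chromosome 11, coding bases 1895 to 2014) holds 84. Over the whole transcript the shares are 34.2%, 39.0% and 67.8%.

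These genes show what the bins do to a value. STARD4, which carries cholesterol between membranes, was listed at 5.05, 4.30 and 3.05 FPKM in vector replicates 1, 2 and 3 and at 1.82 and 1.57 FPKM in TIF1γ replicates 2 and 3. Its scaled log2 difference of -0.99 became -0.39 within its GC bin. LTBP3, which holds latent TGF-beta in the matrix, was listed at 44.7, 46.4 and 50.8 FPKM and then at 93.3 and 73.1 FPKM in the same order of libraries. Its difference of 0.68 became 0.16. For TRIM33, a gene of low GC that was higher in TIF1γ, the step made the difference larger.

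Across the 11211 protein-coding genes the scaled log2 difference and transcript GC had a Spearman rho of 0.80, given as a description across genes of the same libraries. In the lowest of 20 GC bins (30.2% to 37.4% GC, 561 genes) the median scaled difference was -0.60, and in the highest (64.7% to 74.7%, 561 genes) it was 0.52. TIF1γ replicate 2 carried the steeper trend. In the lowest bin its median lay -0.82 from the vector mean and that of TIF1γ replicate 3 lay -0.39 from it, against 0.11, 0.08 and -0.20 for vector replicates 1, 2 and 3. In the highest bin the medians were 0.70 and 0.35 in TIF1γ replicates 2 and 3 and -0.09, -0.01 and 0.08 in the vector libraries. The trend was also present between control libraries: rho with GC was 0.456 for vector replicate 3 minus vector replicate 1, and 0.0988 for vector replicate 2 minus vector replicate 1. The difference between the TIF1γ libraries, replicate 3 minus replicate 2, had a rho of -0.540. Transcript length moved with GC, from a median of 4512 bases in the lowest bin to 2181 bases in the highest.

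**Figure D1:**
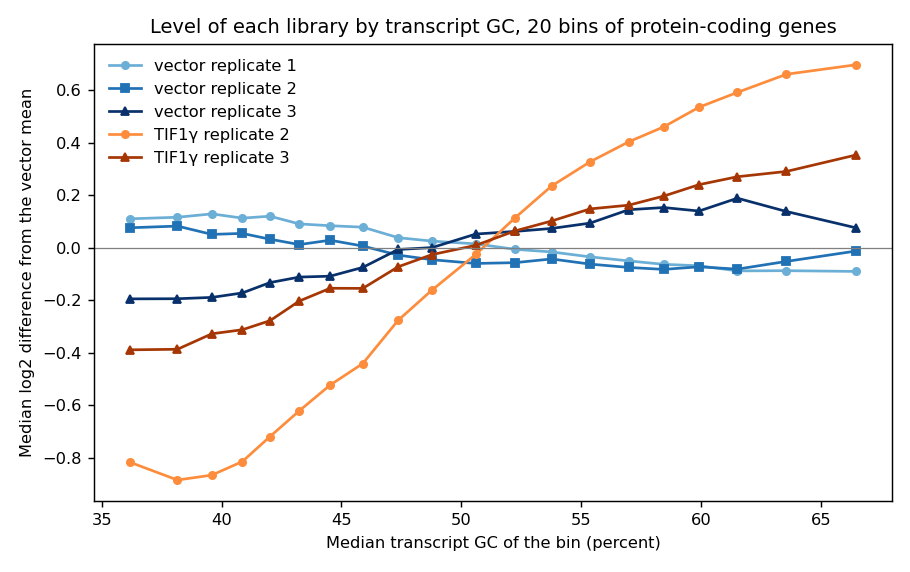
Each line is 1 library, the x axis is the median transcript GC percent of 20 bins of protein-coding genes, and the y axis is the bin's median log2 difference from the vector mean on scaled values. TIF1γ replicate 2 runs from -0.82 to 0.70 and TIF1γ replicate 3 from -0.39 to 0.35, while vector replicate 3 slopes the same way more weakly, from -0.20 to 0.08.

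After the bin step rho with GC was -0.01 and that with transcript length was -0.147. The standard deviation of the log2 difference over protein-coding genes went from 0.483 to 0.299. The number of protein-coding genes with a difference over 1 in either direction went from 301 to 54, and 91.0% of genes lay within 0.5 of 0. The median GC-bin-centred difference of all protein-coding genes was 0.01, with 5771 above 0 and 5440 below.

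On scaled values, 1895 protein-coding genes (16.9%) had both TIF1γ libraries above all vector libraries and 2536 (22.6%) had both below. On GC-bin-centred values the counts were 1150 (10.3%) and 1220 (10.9%). With so few libraries, shares of this size can arise from the order of the libraries alone, without a group difference. Lack of overlap by itself therefore does not mark a gene as changed. Without overlap on both kinds of values, 548 genes (4.89%) were higher and 871 (7.77%) lower, 1419 together (12.7%). Requiring both kinds of values keeps the lean of the GC trend. In the lowest bin 71 genes were higher and 71 lower on GC-bin-centred values, but 2 and 71 on both. In the highest bin the counts were 41 higher and 42 lower on GC-bin-centred values, and 41 and 0 on both. In the middle bin at 49.7% to 51.4% GC, 41 were higher and 52 lower on both.

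**Figure D2:**
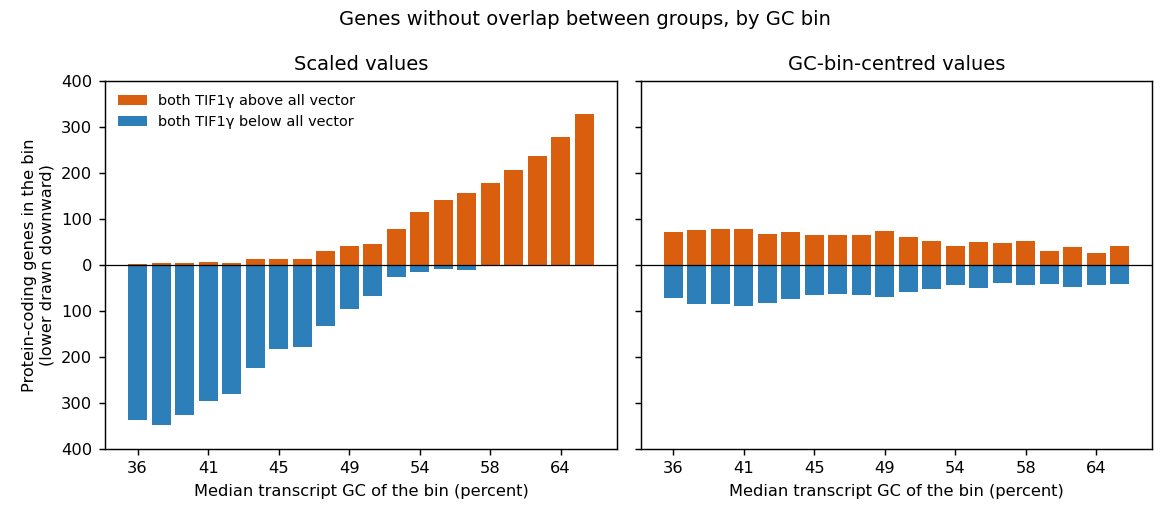
The x axis is the median GC percent of each bin and the y axis is the number of protein-coding genes without overlap between groups, higher in TIF1γ drawn upward and lower drawn downward, for scaled values on the left and GC-bin-centred values on the right. On scaled values 338 genes of the lowest bin were lower and 328 of the highest bin were higher, and on GC-bin-centred values every bin holds both directions, with 25 to 79 genes higher and 40 to 89 lower.

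No gene of 12708 passed limma with Benjamini-Hochberg adjustment at 0.05 on GC-bin-centred values (0% called). At an unadjusted p under 0.05 there were 807 genes, 480 higher and 327 lower, of which 319 higher (2.85%) and 285 lower (2.54%) were protein-coding. On scaled values limma called 10 genes (0.0787%), 7 higher and 3 lower, none of them protein-coding. Among those, SNORA53, AL158835.2, RN7SL521P, RPL32P24, AD000091.1 and AC008655.2 were listed at 0 in all 3 vector libraries, and NANOGP1, AL133153.1 and ATG12P1 were listed at 0 in both TIF1γ libraries. The remaining call, the long noncoding RNA AC011445.2, was listed at 24.7, 23.9 and 51.9 FPKM in vector replicates 1, 2 and 3 and at 237 and 134 FPKM in TIF1γ replicates 2 and 3. The p-values rest on 3 and 2 libraries. In simulated data of the same layout the test called 66% of 100 genes changed by 2 on the log2 scale. It called 9% of 100 genes changed by 1, and there were 2 false calls in that fit of 12469 genes. Whether these shares hold for the libraries analysed here was not tested. In these libraries TRIM33 had a GC-bin-centred difference of 2.01 and a limma adjusted p of 0.453. None of the genes below passed the test, and each is described by its values.

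SMAD4, the mediator TIF1γ can ubiquitinate, was listed at 9.82, 6.88 and 7.97 FPKM in vector replicates 1, 2 and 3 and at 4.61 and 5.16 FPKM in TIF1γ replicates 2 and 3. Both TIF1γ libraries were lower as listed, by -0.74 on scaled values, but SMAD4 is a gene of low GC and within its bin the difference was -0.20 (SE 0.217, limma adjusted p 0.899) with overlap. SMAD2, a receptor-activated partner, had 17.8, 15.004 and 20.7 FPKM in vector replicates 1, 2 and 3 and 10.5 and 17.5 FPKM in TIF1γ replicates 2 and 3, with a GC-bin-centred difference of 0.13. SMAD3 had 56.3, 40.5 and 82.2 FPKM and then 86.4 and 68.9 FPKM, and its difference was 0.32. Neither SMAD separated the groups. Of the 18 tested genes among TIF1 family members, SMADs and their co-repressors, TRIM33 was the only one higher on both kinds of values and SMURF2, a ubiquitin ligase for SMADs and TGF-beta receptors, the only one lower. SMURF2 was listed at 3.15, 3.02 and 2.77 FPKM in the vector libraries and at 1.08 and 2.33 FPKM in TIF1γ replicates 2 and 3, a GC-bin-centred difference of -0.32. The relatives of TIF1γ overlapped between groups within their bins: TRIM24 (TIF1α) differed by -0.28 and TRIM28 (TIF1β) by -0.21.

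CDH1, the epithelial cadherin, was listed at 5.81, 4.27 and 10.4 FPKM in vector replicates 1, 2 and 3 and at 8.29 and 10.9 FPKM in TIF1γ replicates 2 and 3. Vector replicate 3 lay between the TIF1γ libraries, and the GC-bin-centred difference was 0.50 (SE 0.339, limma adjusted p 0.838). CDH2, the mesenchymal cadherin, had 3.67, 3.02 and 3.61 FPKM and then 2.00 and 3.18 FPKM, a difference of -0.06 that was 0.042 without vector replicate 3 and 0.054 without TIF1γ replicate 2. VIM, the mesenchymal intermediate filament, had 741, 801 and 589 FPKM and then 786 and 669 FPKM, a difference of -0.24. The ranges of CDH1, CDH2 and VIM overlapped between the groups.

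FN1, a matrix protein, was listed at 81.1, 106 and 153 FPKM in vector replicates 1, 2 and 3 and at 109 and 237 FPKM in TIF1γ replicates 2 and 3. Its GC-bin-centred difference was 0.45 with both TIF1γ libraries and -0.16 without TIF1γ replicate 3. SNAI1, a repressor of CDH1, had 2.18, 1.99 and 1.24 FPKM and then 3.11 and 1.59 FPKM, and its difference was -0.17 within its GC bin and 0.15 on scaled values. SNAI2 and ZEB1, further repressors of CDH1, and the cytokine IL6 did not pass the filter. ZEB1 was listed at 0.888, 1.02 and 0.797 FPKM in the vector libraries and at 0.307 and 0.650 FPKM in TIF1γ replicates 2 and 3, and IL6 at 0.301, 0.226 and 0.674 FPKM and then at 0.645 and 0.737 FPKM. TBP, the TATA-binding protein, had 8.02, 7.86 and 7.83 FPKM in the vector libraries and 8.70 and 7.04 FPKM in TIF1γ replicates 2 and 3, with a difference of 0.06 within its bin and -0.12 on scaled values. None of FN1, SNAI1 and TBP separated the groups within its GC bin.

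**Figure D3:**
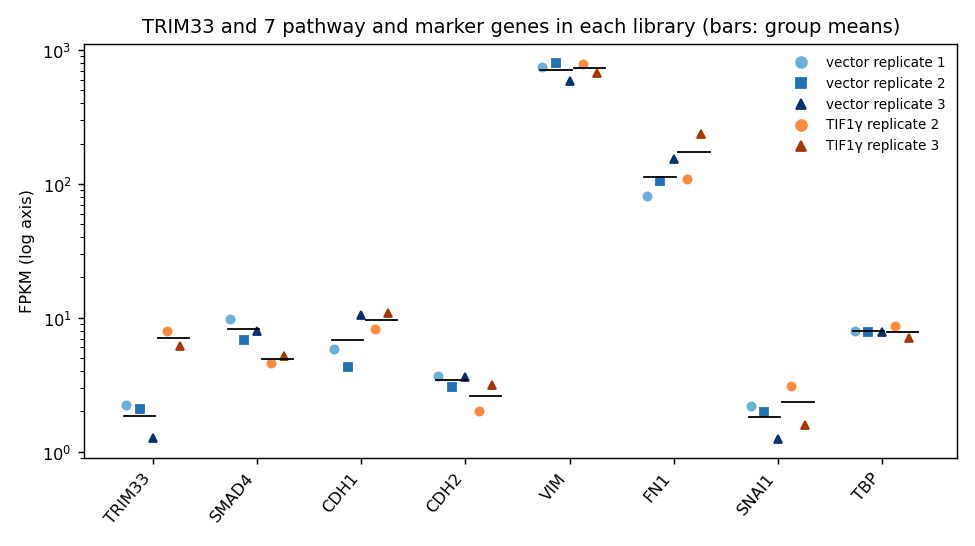
FPKM on a log axis for TRIM33, SMAD4, CDH1, CDH2, VIM, FN1, SNAI1 and TBP, 1 point a library and a bar at each group's mean (3 vector and 2 TIF1γ libraries). TRIM33 lies at 1.27 to 2.23 FPKM in the vector libraries and at 6.14 and 8.03 FPKM with TIF1γ, and CDH1, CDH2, VIM, FN1 and SNAI1 overlap between the groups.

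The 12 genes with the largest GC-bin-centred difference among those higher without overlap, at a mean of at least 5 FPKM, ran from 1.99 to 0.97. TMCC1, a membrane protein of the endoplasmic reticulum, led them with 3.50, 11.5 and 5.25 FPKM in vector replicates 1, 2 and 3 and 35.0 and 14.7 FPKM in TIF1γ replicates 2 and 3 (difference 1.99, SE 0.514). Its vector libraries spread more than 3-fold. ERV3-1, an envelope gene of an endogenous retrovirus, was tighter: 4.52, 6.58 and 7.04 FPKM against 12.9 and 13.8 FPKM (difference 1.25, SE 0.247). INSL4, an insulin-like peptide known from placenta, had 6.71, 8.80 and 9.57 FPKM in the vector libraries and 15.9 and 14.0 FPKM in TIF1γ replicates 2 and 3 (difference 1.18). In ERV3-1 and INSL4 the TIF1γ libraries lay close together.

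GGACT, which breaks down gamma-glutamyl amines left by transglutaminase cross-links, was listed at 14.6, 16.6 and 13.8 FPKM in the vector libraries and at 37.8 and 28.99 FPKM in TIF1γ replicates 2 and 3. Its difference of 1.09 (SE 0.193) had a limma adjusted p of 0.716, the lowest of these 12 genes. C15orf61 had 15.4, 18.9 and 14.3 FPKM and then 29.8 and 22.4 FPKM (difference 1.13). OSBPL10, an oxysterol-binding-protein relative that moves lipids between membranes, had 5.06, 2.03 and 4.45 FPKM and then 9.22 and 5.37 FPKM (difference 1.11, SE 0.391), and TIF1γ replicate 3 lay just above vector replicate 1. C15orf48, a small protein of the mitochondrial cytochrome oxidase complex, had 53.9, 64.3 and 63.3 FPKM and then 77.8 and 101 FPKM (difference 0.97, SE 0.211). In GGACT the lower TIF1γ library lay far above the vector range, and in C15orf61 and OSBPL10 it lay nearer to it.

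Genes of mitochondrial function were also among the 12. MT-ND3, a complex I subunit encoded in mitochondrial DNA, was listed at 7127, 10173 and 10062 FPKM in vector replicates 1, 2 and 3 and at 16878 and 11129 FPKM in TIF1γ replicates 2 and 3 (difference 1.08). DMAC2L, a factor coupled to ATP synthase, had 5.34, 10.9 and 10.4 FPKM and then 14.4 and 11.5 FPKM (difference 0.98). For DMAC2L and MT-ND3 the lower TIF1γ library lay just above the highest vector library. ST20 had 12.7, 18.9 and 12.8 FPKM and then 23.4 and 19.5 FPKM (difference 1.05). RPS10-NUDT3 is a readthrough gene that shares its exons with RPS10 and NUDT3, and its difference of 1.03 is uncertain because reads could be split among them.

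All 12 of these genes had a transcript GC below 50%, where the bin step adds to a difference, and all were also higher before it, by 0.41 to 1.64 on the scaled values.

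The 12 genes with the largest difference among those lower without overlap ran from -2.08 to -0.83. DDX53, a DEAD-box RNA helicase expressed in testis and tumours, was listed at 20.3, 20.4 and 16.3 FPKM in the vector libraries, at 9.81 FPKM in TIF1γ replicate 2 and at 0 in TIF1γ replicate 3. Without TIF1γ replicate 3 its GC-bin-centred difference was -0.18, so the value of -2.08 rests on the listed 0. SVIL, an actin- and myosin-binding protein of the cell cortex, had 3.53, 13.2 and 18.3 FPKM in vector replicates 1, 2 and 3 and 1.74 and 2.47 FPKM in TIF1γ replicates 2 and 3 (difference -1.87, SE 0.558). ZNF778, a zinc finger protein, had 16.6, 10.7 and 4.88 FPKM and then 4.53 and 0.831 FPKM (difference -1.74, SE 0.559). For SVIL and ZNF778 the vector libraries spread more than 3-fold, and the highest TIF1γ value lay near the lowest vector value of ZNF778.

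NDUFAF1, an assembly factor of respiratory complex I, stood out by its small spread. It was listed at 13.7, 13.8 and 12.7 FPKM in vector replicates 1, 2 and 3 and at 5.49 and 4.73 FPKM in TIF1γ replicates 2 and 3, a difference of -1.03 (SE 0.190, limma adjusted p 0.786). AKAP12, a scaffold for protein kinase A, had 20.9, 16.4 and 13.7 FPKM and then 6.76 and 8.65 FPKM (difference -0.83, SE 0.202). TAX1BP1, an autophagy receptor that also restrains NF-kB signalling, had 19.6, 17.5 and 16.3 FPKM and then 6.43 and 11.95 FPKM (difference -0.93). In NDUFAF1 the gap between the groups was larger than the spread within either. In TAX1BP1 the TIF1γ libraries differed from each other, with replicate 3 nearer to the vector libraries.

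Genes of chromosome handling were among the 12. TOP2A, the topoisomerase that untangles chromosomes before division, was listed at 45.8, 80.0 and 26.2 FPKM in the vector libraries and at 15.6 and 18.7 FPKM in TIF1γ replicates 2 and 3 (difference -0.89). STAG2, a cohesin subunit, had 10.4, 7.78 and 5.18 FPKM and then 2.07 and 2.65 FPKM (difference -0.84). In these genes vector replicate 3 was the lowest control and lay nearest to the TIF1γ libraries.

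CSE1L, which returns importin alpha to the cytoplasm, followed the same order with 38.4, 35.2 and 16.6 FPKM in vector replicates 1, 2 and 3 and 9.76 and 10.3 FPKM in TIF1γ replicates 2 and 3 (difference -0.92). SYNM, an intermediate filament protein, had 9.09, 6.87 and 4.70 FPKM and then 3.39 and 3.26 FPKM (difference -0.99). MCEE, an enzyme of propionate breakdown, had 8.82, 9.39 and 6.94 FPKM and then 6.03 and 4.23 FPKM (difference -0.89). MCEE and SYNM are the genes of these 12 with a transcript GC above 50%, and their scaled differences, -0.72 and -0.92, were smaller than the GC-bin-centred ones.

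**Figure D4:**
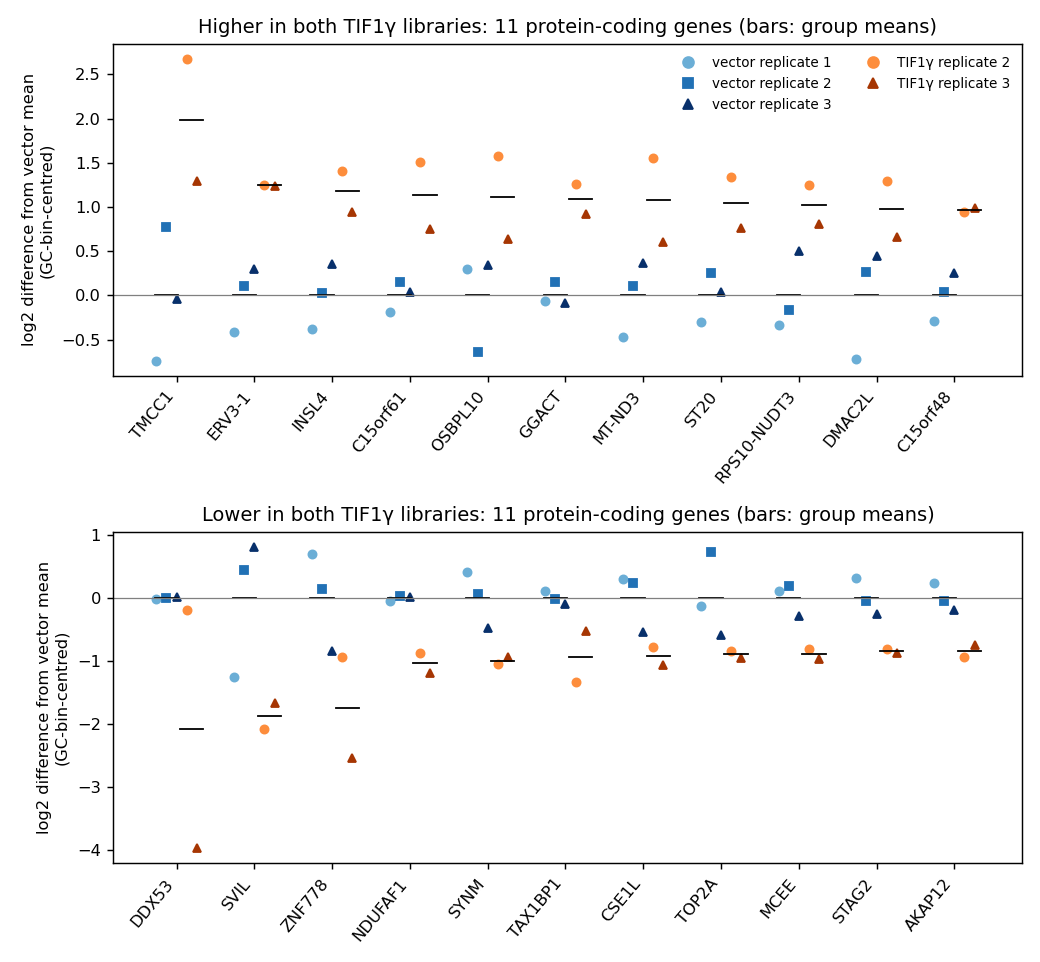
The y axis is the GC-bin-centred log2 difference of each library from the vector mean, 1 point a library and a bar at each group's mean, for 11 of the 12 largest genes higher (top) and 11 of the 12 lower (bottom) in both TIF1γ libraries. TMCC1 and DDX53 have TIF1γ libraries far apart, while ERV3-1, C15orf48, NDUFAF1 and STAG2 have them close together.

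Gene groups are described by counts of members without overlap on both kinds of values, to be read against 4.89% higher and 7.77% lower over all protein-coding genes tested, and by the median GC-bin-centred difference, to be read against 0.01. In the 6 lowest GC bins 12.7% to 15.9% were lower on both kinds of values and only 0.357% to 2.32% higher. These shares are the nearer background for lists of low GC, where few or no higher members are therefore usual. In the bins from 43.9% to 46.6% GC, 11.2% to 11.8% were lower and 2.14% to 2.32% higher. In the bins from 46.6% to 51.4% GC, 9.29% to 12.5% were lower and 5.36% to 7.32% higher. In the bins from 54.6% to 59.2% GC, 8.57% to 9.09% were higher and 0.535% to 1.96% lower, which is the nearer background for lists of high GC. None of the members was called by limma.

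Cohesin, condensin and SMC proteins, which hold and fold chromosomes, had 8 of 21 tested members lower (38.1%) and 0 higher, 19 of 21 below 0, and a median of -0.24. PDS5B, a regulator of cohesin, was listed at 3.06, 3.43 and 1.86 FPKM in vector replicates 1, 2 and 3 and at 0.251 and 0.861 FPKM in TIF1γ replicates 2 and 3, a difference of -0.73. SMC3, a core cohesin subunit, had 9.67, 8.73 and 4.67 FPKM and then 1.99 and 3.57 FPKM, a difference of -0.67. The list's median by library was 0.10, 0.06 and -0.18 in the vector libraries and -0.21 and -0.35 in TIF1γ replicates 2 and 3, so vector replicate 3 came within 0.1 of TIF1γ replicate 2. Leaving out each library in turn gave medians from -0.36 to -0.20.

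Nuclear pore proteins had 8 of 28 members lower (28.6%) and 0 higher, 22 below 0, and a median of -0.26. On GC-bin-centred values alone 8 were lower and 1 higher. NUP107, a subunit of the pore's outer ring, had 16.8, 14.5 and 8.78 FPKM in the vector libraries and 5.05 and 5.30 FPKM in TIF1γ replicates 2 and 3, a difference of -0.73. NUP133, of the same ring, had 8.43, 7.403 and 5.92 FPKM and then 3.54 and 3.94 FPKM, a difference of -0.47. NUP54, of the central channel, had 10.8, 9.36 and 6.67 FPKM and then 3.41 and 4.55 FPKM, a difference of -0.48. In each, both TIF1γ libraries lay below vector replicate 3, the lowest control.

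DNA double-strand break repair had 7 of 29 members lower (24.1%) and 0 higher, 28 below 0, and a median of -0.16 that ran from -0.34 to -0.15 with 1 library left out. XRCC5, the large subunit of Ku, which binds broken ends, had 85.1, 72.1 and 56.6 FPKM in the vector libraries and 34.8 and 43.5 FPKM in TIF1γ replicates 2 and 3, a difference of -0.61. FANCI, a Fanconi anaemia protein of crosslink repair, had 15.3, 13.6 and 10.6 FPKM and then 5.84 and 6.93 FPKM, a difference of -0.62. RAD50, which senses ends with MRE11, had 7.57, 8.57 and 5.35 FPKM and then 2.48 and 4.199 FPKM, a difference of -0.47. The median GC of these 3 lists was 40.2% for cohesin, 44.1% for the nuclear pore and 42.6% for repair, on the side where scaled values were lower.

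G2 and M phase genes had 10 of 43 members lower (23.3%) and 0 higher, 34 below 0, and a median of -0.33. Here the libraries of a group did not stay together. The list's median deviation was 0.17, 0.19 and -0.35 in the vector libraries and -0.07 and -0.56 in TIF1γ replicates 2 and 3, so vector replicate 3 was lower than TIF1γ replicate 2. Without TIF1γ replicate 3 the list's median difference was -0.07, and without TIF1γ replicate 2 it was -0.57. CCNB1, the mitotic cyclin, was listed at 210.0, 197 and 110 FPKM in the vector libraries and at 168 and 98.5 FPKM in TIF1γ replicates 2 and 3, with overlap. NUSAP1, which bundles spindle microtubules, separated the groups with 25.6, 22.3 and 23.9 FPKM against 11.7 and 12.9 FPKM, a difference of -0.51. MKI67, the proliferation marker, had 6.70, 3.93 and 4.59 FPKM and then 3.67 and 2.42 FPKM, a difference of -0.57.

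S phase and DNA replication genes had 5 of 45 members lower (11.1%) and 0 higher, 41 below 0, and a median of -0.29 that was 0.06 without TIF1γ replicate 3. The list's median GC was 48.2%, and in that GC bin 12.5% of protein-coding genes were lower and 7.31% higher. RRM1, the large subunit of ribonucleotide reductase, was listed at 37.8, 37.9 and 24.0 FPKM in the vector libraries and at 14.5 and 16.2 FPKM in TIF1γ replicates 2 and 3, a difference of -0.73. MCM2, of the replicative helicase, overlapped, with 48.5, 46.9 and 40.1 FPKM and then 84.2 and 30.4 FPKM. Cholesterol synthesis and uptake showed the same split of libraries: 22 of 25 members lay below 0, the median was -0.28, and it was 0.00 without TIF1γ replicate 3. By library its median was 0.17, 0.23 and -0.37 with the vector and 0.01 and -0.60 in TIF1γ replicates 2 and 3. SQLE, an enzyme of the pathway, had 54.6, 59.4 and 19.7 FPKM and then 28.3 and 19.1 FPKM. STARD4, printed above, was the only member without overlap on both kinds of values.

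All 13 protein-coding mRNAs of mitochondrial DNA had a GC-bin-centred difference above 0, with a median of 0.59, and 1 of them, MT-ND3, was without overlap on both kinds of values. By library the median was -0.23, -0.15 and 0.36 with the vector and 0.89 and 0.21 in TIF1γ replicates 2 and 3, so TIF1γ replicate 3 lay below vector replicate 3. MT-CO1, a cytochrome oxidase subunit, was listed at 9827, 9024 and 14878 FPKM in the vector libraries and at 15195 and 13839 FPKM in TIF1γ replicates 2 and 3. The median was 0.19 without TIF1γ replicate 2, 0.88 without TIF1γ replicate 3 and 0.27 on scaled values. The 13 mRNAs are cut from shared transcripts and are not independent. Nuclear-encoded respiratory chain subunits had 1 of 62 members higher and 0 lower, with 51 above 0 and a median of 0.16 that was -0.01 without TIF1γ replicate 2. UQCR11, of complex III, was the member without overlap, at 94.8, 119 and 104 FPKM and then 183 and 134 FPKM, a difference of 0.29.

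Cytosolic ribosomal proteins had 5 of 79 members higher (6.33%) and 3 lower (3.80%), with a median of 0.14 that ran from 0.051 to 0.28 with 1 library left out. Mitochondrial ribosome subunits had 2 of 70 higher and 2 lower (2.86% each), with a median of 0.04 that was -0.15 without TIF1γ replicate 2, -0.099 without vector replicate 3 and 0.26 without TIF1γ replicate 3. MRPL34 had 87.7, 114 and 103 FPKM in the vector libraries and 188 and 144 FPKM in TIF1γ replicates 2 and 3, a difference of 0.36, while MRPL42 differed by -0.30. Both lists held members in either direction.

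Epithelial markers had 4 of 21 tested members higher (19.0%) and 1 lower (4.76%), with 15 above 0 and a median of 0.21. A further 9 members were too low and 2 were set aside. CLDN7, a tight junction claudin, was listed at 2.10, 2.95 and 2.46 FPKM in the vector libraries and at 6.54 and 6.64 FPKM in TIF1γ replicates 2 and 3, a difference of 0.65. ELF3, an epithelial transcription factor, had 287, 321 and 339 FPKM and then 632 and 430 FPKM, a difference of 0.38. CRB3, an apical polarity protein, had 7.38, 13.6 and 13.5 FPKM and then 26.3 and 18.9 FPKM, a difference of 0.41. CLDN4 was the fourth, with a difference of 0.39 at 0.638 to 3.18 FPKM. TJP1, the tight junction scaffold ZO-1, went the other way with 16.9, 12.6 and 10.8 FPKM and then 5.37 and 8.91 FPKM, a difference of -0.60. The median GC of the epithelial list was 56.6%, its scaled median was 0.54, and its median was 0.10 without TIF1γ replicate 3. By library it was -0.08, -0.11 and 0.17 in the vector libraries and 0.10 and 0.37 in TIF1γ replicates 2 and 3, with overlap.

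None of 18 tested mesenchymal markers was without overlap, and their median was -0.08 with both TIF1γ libraries, 0.13 without TIF1γ replicate 2 and 0.16 on scaled values. TGF-beta and SMAD target genes had 2 of 23 members higher (8.70%) and 0 lower, with a median of 0.09 that was -0.21 without TIF1γ replicate 3. LMCD1, a LIM-domain co-regulator, was listed at 26.7, 28.9 and 42.5 FPKM in the vector libraries and at 51.0 and 51.5 FPKM in TIF1γ replicates 2 and 3, a difference of 0.89. LTBP3 was the other. SMAD7, the inhibitory SMAD induced by TGF-beta, had 3.39, 4.69 and 5.29 FPKM and then 5.09 and 5.49 FPKM, a difference of -0.20. Most targets thus overlapped between the groups.

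IL6, JAK and STAT3 genes had 2 of 19 members lower (10.5%) and 0 higher. Their median of 0.01 changed sign with the libraries used: it was -0.20 when TIF1γ replicate 3 was dropped and 0.14 when TIF1γ replicate 2 was, and below 0 also when vector replicate 1 or 2 was dropped. JAK1, the kinase bound to the shared receptor chain, was listed at 24.3, 18.3 and 18.3 FPKM in the vector libraries and at 10.6 and 12.7 FPKM in TIF1γ replicates 2 and 3, a difference of -0.55. IL6R, the receptor for IL6, had 5.69, 5.06 and 4.48 FPKM and then 3.99 and 3.72 FPKM, a difference of -0.49. STAT3 itself overlapped, at 26.4, 23.6 and 33.5 FPKM and then 26.6 and 27.6 FPKM. NF-kB genes had 0 of 22 higher and 2 lower on both kinds of values, BIRC3 and BIRC2, inhibitors of cell death, while 18 of 22 lay above 0. On GC-bin-centred values alone 4 were higher and 2 lower without overlap. The NF-kB list's median of 0.14 was -0.13 without TIF1γ replicate 3 and 0.45 without TIF1γ replicate 2. BIRC3 had 7.64, 7.62 and 5.39 FPKM and then 1.82 and 4.06 FPKM, a difference of -0.53.

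TFIID, TBP-complex and general transcription factor genes had 1 of 27 members higher and 5 lower (18.5%), with a median of -0.03. On scaled values the same median was -0.41, at a median GC of 43.6%. TAF7, a TFIID subunit, was listed at 28.9, 30.1 and 23.6 FPKM in the vector libraries and at 15.1 and 21.7 FPKM in TIF1γ replicates 2 and 3, a difference of -0.27. GTF2H1, a TFIIH subunit, differed by -0.31 and GTF2E1, of TFIIE, by -0.34. The scaled values of this list lay further below 0 than the values within GC bins.

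**Figure D5:**
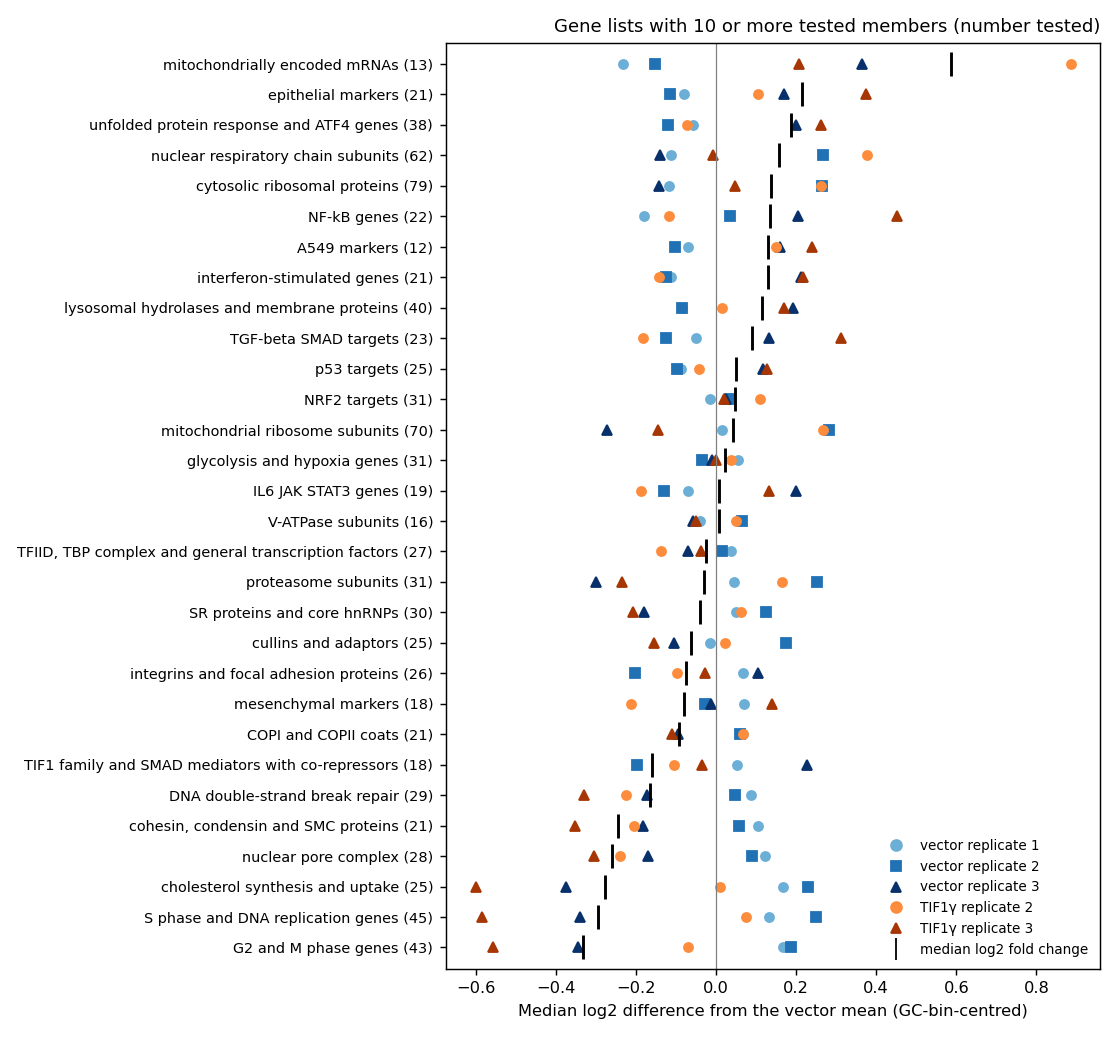
Each row is a gene list with 10 or more tested members, the x axis is the median GC-bin-centred log2 difference of its members from the vector mean, points are libraries and the black bar is the list's median TIF1γ minus vector difference. Nuclear pore, cohesin and repair lists have both TIF1γ libraries below all vector libraries, while the G2 and M phase, S phase and cholesterol lists have replicate 3 of both groups on the low side.

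Proteasome subunits, which degrade ubiquitinated proteins, had 4 of 31 members lower (12.9%) and 0 higher. In the GC bin of the list's median GC (48.3%), 12.5% of protein-coding genes were lower and 7.31% higher. The list's median difference of -0.03 was -0.24 without TIF1γ replicate 2, 0.16 without TIF1γ replicate 3 and 0.076 without vector replicate 2. PSMD1, a scaffold of the regulatory particle, was listed at 49.8, 49.0 and 29.1 FPKM in the vector libraries and at 20.5 and 20.6 FPKM in TIF1γ replicates 2 and 3, a difference of -0.75. Unfolded protein response and ATF4 genes had 3 of 38 lower and 1 higher, with a median of 0.19 that was -0.08 without TIF1γ replicate 3. HSP90B1, an endoplasmic reticulum chaperone, had 178, 162 and 92.6 FPKM and then 53.3 and 69.8 FPKM, a difference of -0.78. HSPA5, the chaperone BiP, had 160, 138 and 94.9 FPKM and then 85.1 and 75.3 FPKM, a difference of -0.48. SHMT2, a serine pathway enzyme under ATF4, was the higher one with 93.6, 103 and 132 FPKM and then 194 and 147 FPKM, a difference of 0.30. HSP90B1 and HSPA5 thus lay below 0 and SHMT2 above it, in a list with 22 members above 0 and 16 below.

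NRF2 targets, which A549 cells express strongly, had 1 of 31 members higher and 2 lower, with a median of 0.05. TXNRD1, thioredoxin reductase, was listed at 463, 374 and 380 FPKM in the vector libraries and at 208 and 277 FPKM in TIF1γ replicates 2 and 3, a difference of -0.52. GPX2, a glutathione peroxidase, had 658, 677 and 1008 FPKM and then 1423 and 1137 FPKM, a difference of 0.45. Among p53 targets 2 of 25 were higher and 2 lower. MDM2, the ligase that degrades p53, had 14.5, 16.2 and 8.09 FPKM and then 3.40 and 7.05 FPKM, a difference of -0.76, while PHLDA3, a repressor of AKT, had 94.8, 116 and 111 FPKM and then 201 and 160 FPKM, a difference of 0.25. Of 21 interferon-stimulated genes 2 were higher and 1 lower. ISG20, an RNA exonuclease, had 14.997, 18.7 and 17.6 FPKM and then 30.4 and 30.5 FPKM, a difference of 0.53. These lists had no common direction.

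Integrin and focal adhesion genes had 2 of 26 members higher and 4 lower (15.4%), with a median of -0.07 that was 0.14 on scaled values. TLN2, a talin that links integrins to actin, was listed at 1.91, 2.06 and 1.70 FPKM in the vector libraries and at 3.59 and 8.01 FPKM in TIF1γ replicates 2 and 3, a difference of 1.00. ITGA6, a laminin-binding integrin, had 10.7, 7.54 and 7.70 FPKM and then 3.49 and 5.41 FPKM, a difference of -0.51. Glycolysis and hypoxia genes had 3 of 31 higher and 0 lower, and PGK1, phosphoglycerate kinase, had the lowest limma p of these. PGK1 was listed at 1023, 1031 and 1087 FPKM in the vector libraries and at 1269 and 1128 FPKM in TIF1γ replicates 2 and 3, a scaled difference of 0.076 that became 0.49 within its GC bin. Lower members only, on both kinds of values, were found among the 16 subunits of the V-ATPase proton pump (3, 18.8%). The same held for the 21 COPI and COPII coat proteins (4, 19.0%) and the 25 cullins and adaptors (4, 16.0%). In the GC bin of these lists' median GC (45.2% to 46.6%), 11.2% of protein-coding genes were lower and 2.14% higher. On GC-bin-centred values alone 1 coat protein and 1 member of the cullin list were higher. The list medians, in that order, were 0.01, -0.09 and -0.06 within GC bins and -0.22, -0.37 and -0.17 on scaled values. With 1 library left out these medians turned sign: V-ATPase ran from -0.054 (without TIF1γ replicate 2) to 0.062, and was below 0 also without vector replicate 3. The coat proteins ran from -0.12 to 0.061 (above 0 without TIF1γ replicate 3). The cullins ran from -0.16 to 0.076 (above 0 without vector replicate 2 and without TIF1γ replicate 3). In the splicing list of 30 SR proteins and hnRNPs 1 was higher and 2 lower, and among 40 lysosomal proteins 2 were higher and 1 lower.

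KRT8 and KRT18, the paired keratins of simple epithelia, could not be compared. KRT8 was listed at 5036, 5747 and 5307 FPKM in vector replicates 1, 2 and 3 and at 0 in both TIF1γ libraries. KRT18 was listed at 5092, 5721 and 4561 FPKM in the vector libraries and likewise at 0 in both TIF1γ libraries. An exact 0 beside such values can be a failed estimate, so these genes were set aside with 10 others that had a 0 beside 100 FPKM or more. KRT19, another keratin of simple epithelia, was listed at 26.9, 30.8 and 41.6 FPKM in the vector libraries and at 61.5 and 61.7 FPKM in TIF1γ replicates 2 and 3. At a transcript GC of 61.8%, the KRT19 scaled difference of 0.78 became 0.36 within its bin, with overlap.

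On GC-bin-centred values 1 of the closest pairs of libraries lay within the vector group and 1 across the groups. The standard deviation of the log2 difference across protein-coding genes was 0.323 between vector replicate 3 and TIF1γ replicate 3 and also 0.323 between vector replicates 1 and 2. On scaled values these pairs lay at 0.344 and 0.325. On GC-bin-centred values it was 0.471 between the TIF1γ libraries, and 0.410 and 0.521 between vector replicate 3 and vector replicates 1 and 2. TIF1γ replicate 2 lay at 0.466, 0.445 and 0.50006 from vector replicates 1, 2 and 3. Whether libraries with the same number were handled together is not given in the sources used here.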

How the data were processed

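Total RNA of A549 cells was sequenced per the labels. Per the submitters' processing notes, the tools were cutadapt 1.9.1, HISAT2 2.0.1 and HTSeq 0.6.1 with GRCh37. The deposited values are FPKM per Ensembl gene, linear and without a logarithm, and how the authors computed them is not given in the sources used here. Of 57879 identifiers per file, 52324 matched GENCODE 29, which gave names, gene types, transcript length and GC percent but no coordinates.

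Library factors came from the mean log2 ratio after trimming (30% of ratios, 5% by abundance, at either end), and log2(FPKM + 1) of the scaled deposited values was taken. Genes needed 1 FPKM or more in no fewer than 2 of 5 libraries and a GC value (313 lacked one), and 12 genes with an exact 0 beside 100 FPKM or more were set aside. In 20 GC bins of protein-coding genes, each library's median deviation was subtracted. Groups were compared with limma 3.58.1 (R 4.3.3, trend and robust, no block), with Benjamini-Hochberg adjustment over all 12708 genes at 0.05. The code was tested on simulated data of 12469 genes.

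The genes named are TRIM33 and 10 further genes: SMAD4, IL6, TBP and genes of epithelial-mesenchymal transition. Also named are the 12 largest differences in each direction and up to 3 genes a list by lowest p among those without overlap. All limma calls are named too. Of the 12 largest, 1 gene in each direction is not reported here. SMAD2, SMAD3, TRIM24, TRIM28, CCNB1, MKI67, MCM2, SQLE, MT-CO1, CRB3, CLDN4, SMAD7, STAT3 and KRT19 were named after their values were seen. The comparison's genes and the 35 lists (1004 symbols, 8 without an identifier here) were chosen with earlier results of these data known. The labels call the replicates biological, and p-values measure only the spread between these libraries. Alternatives were other bins, pseudocount, filter, scaling, all 8 libraries, the replicate number as a block and leaving out each library.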

Additional observations from a re-analysis of the deposited data

How the results depend on the processing

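Absolute depth is unknown and TIF1γ has 2 libraries. On GC-bin-centred values limma called 0 genes; it called 10 without the bin step, 2 (KRT8 and KRT18) with the zero genes kept, and 0 to 3 when 1 library was left out. On scaled values the 10 calls became 3 with a pseudocount of 0.1, 0 without the filter, 2 with all 8 libraries in 1 fit, and 2 (without TIF1γ replicate 2) to 611 (without vector replicate 3) when 1 library was left out. Where leaving out a TIF1γ library left 1, the lone library was assumed to vary like the vector group. Genes without overlap on both kinds of values, 548 higher and 871 lower, became 1895 and 2536 without the bin step and 1162 and 1540 without the filter. Leaving out 1 library gave 676 to 1984 higher and 952 to 2150 lower, since fewer libraries separate more easily. On GC-bin-centred values alone, 1150 higher and 1220 lower became 2430 and 2570 without the filter, and 1334 to 3002 and 1347 to 3034 with 1 library left out. The rho of 0.80 with GC ranged from 0.586, without TIF1γ replicate 2, to 0.803. The TRIM33 difference ranged from 1.63 to 2.36 with 1 library left out.

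The groups share replicate numbers 2 and 3 only, and nothing in the labels says that a number marks shared handling. With the replicate number as a block, limma called 4 genes on GC-bin-centred values, TRIM33 (2.04, adjusted p 0.0388), SVIL (-2.49), NAV3 (2.18) and MRPL30 (2.23), and 45 on scaled values. Deviations of same-numbered libraries on GC-bin-centred values correlated at 0.367 for number 2 and 0.407 for number 3. With 2 TIF1γ libraries the deviations of 1 mirror those of the other, so these values are not separate observations. TIF1γ replicate 2 and vector replicate 1, which differ in number, correlated at 0.149. Of the named genes, SNAI1 (0.15) and TBP (-0.12) changed sign without the bin step and TBP (-0.026) without the filter. With 1 library left out, CDH2 ran from -0.17 to 0.054 (0.042 without vector replicate 3, above 0 also without TIF1γ replicate 2), FN1 from -0.16 to 1.05 (below 0 without TIF1γ replicate 3) and TBP from -0.095 to 0.22 (below 0 without TIF1γ replicate 2). The cause was not tested.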
